A study of Mus musculus with 6 samples.

Results

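The genes described here encode milk products other than the caseins, namely proteins of the whey and proteins of the milk fat globule. The 9 genes are *Lalba*, *Wap*, *Glycam1*, *Cel*, *Btn1a1*, *Xdh*, *Plin2*, *Mfge8* and *Muc1*, chosen by symbol for the known function of their products. All 9 were found, as 9 of the 18537 known-gene clusters in the deposited table, and 8 of them had enough reads to be tested, together with 13692 genes in all. RNA was taken from luminal progenitors (LPs), the luminal cells of the mouse mammary gland that carry the integrin CD61, purified by fluorescence-activated cell sorting as Lin-CD24loCD29+CD61+. The cells came from adult nulliparous females that were either wild type (*Robo1+/+*) or homozygous for the *Robo1* tm1Matl allele in every tissue (*Robo1-/-*), littermates from crosses of *Robo1+/-* parents. Their strain is not given in the sources used here. There were 3 libraries per genotype, gh03, gh09 and gh15 for *Robo1+/+* and gh06, gh12 and gh18 for *Robo1-/-*, and 2 animals were pooled in each, so p-values measure the spread between pools and not between single animals.

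Milk is made by alveolar cells that differentiate from luminal progenitors in pregnancy, when prolactin acting through STAT5, together with glucocorticoid, switches on the milk genes. Whey proteins leave the cell through the secretory pathway. Fat leaves in another way: a cytoplasmic lipid droplet coated with perilipin 2 reaches the apical surface, is wrapped in plasma membrane with the help of butyrophilin and xanthine oxidoreductase, and is shed as a milk fat globule whose membrane also carries mucin 1 and lactadherin. Virgin glands produce some of these transcripts well before any milk is secreted, and the comparison asks whether their levels in virgin LPs differ when *Robo1* is lost.

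The targeted gene *Robo1* reached 289 to 574 normalized reads in the *Robo1+/+* libraries and 130 to 214 in the *Robo1-/-* libraries. The genotypes did not overlap for it, as for 9.41% of all tested genes. Its *Robo1-/-* mean was 37.1% of the *Robo1+/+* mean, so the transcript was still read. The log2 fold change of *Robo1* was -1.39 and did not pass correction in limma (unadjusted p = 0.0062, adjusted p = 0.858). Reads recovered per library ran from 9727191 to 17433868. The log2 values of each library were set against the mean of the other 5. The *Robo1-/-* library gh18 stood apart in that this deviation fell off with the GC content of the transcript (Spearman rho of -0.81 across 12524 genes). For the other libraries rho was 0.17 to 0.61, against means that include gh18. Results on *Mfge8*, *Muc1* and *Cel*, the members with the most GC-rich transcripts, are therefore given with and without gh18. For the genes of other lists such values are given only in part. The 12 LP markers were all detected, with summed normalized counts of 134248 to 154511 in *Robo1+/+* and 85078 to 167503 in *Robo1-/-*, lowest in gh18. Of them 5 were higher and 7 lower in *Robo1-/-*. The sort marker *Cd24a* had 10674, 14373 and 14034 in gh03, gh09 and gh15 and 21142, 20715 and 19935 in gh06, gh12 and gh18. These did not overlap, as in 9.41% of all tested genes, but did so after a correction for GC content. Of 12 basal markers, 12 were measured and summed to between 1126 and 2808 in *Robo1+/+* (highest in gh03) and between 1217 and 2039 in *Robo1-/-*. Of the 11 tested, 5 were higher and 6 lower in *Robo1-/-*, and 0 passed an unadjusted p of 0.05 with a 2-fold change. Without gh06, *Krt5*, *Krt17* and *Lgals7* passed as lower (background 4.61%), and without gh09 *Krt14* and *Krt17* did (background 0.811%). Without gh18, and with a correction for GC content, 0 passed. Of 14 leukocyte markers, 12 were measured and summed to 210 to 276 in *Robo1+/+* and 118 to 155 in *Robo1-/-*, mostly *Cd68* and *Cd74*, and the defining *Ptprc* did not exceed 1.46 in any library. Of 12 adipocyte markers, 6 were measured and summed to 142 to 455 and 120 to 264, with *Lpl* the most abundant, while *Fabp4* did not exceed 3.92. The part of these cells in the members' values was not tested. Because bulk RNA was measured, a smaller share of cells with a transcript and less of it per cell cannot be told apart.

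To show the sequence at which these genes begin, the 250 bases before the RefSeq start are given for the major whey genes *Lalba* and *Wap*, which lay far apart in level, and for *Glycam1*, whose window alone held a STAT5-type element. Windows came from a RefSeq table on GRCm38.p6, which had one for 7 of the 9 genes, and each was located by exact match in NCBI37/mm9, whose coordinates are printed. The motifs searched were TTCNNNGAA on both strands (the core of a STAT5 element), TATAAA on the sense strand (a TATA box) and TGTTCT on both strands (a glucocorticoid receptor half-site); matches of TTCNNNGAA and TGTTCT can share bases. Capitals mark the matched bases, and the sequences of *Lalba* and *Wap* held no match.
Lalba promoter (chr15:98313115-98313364, minus strand): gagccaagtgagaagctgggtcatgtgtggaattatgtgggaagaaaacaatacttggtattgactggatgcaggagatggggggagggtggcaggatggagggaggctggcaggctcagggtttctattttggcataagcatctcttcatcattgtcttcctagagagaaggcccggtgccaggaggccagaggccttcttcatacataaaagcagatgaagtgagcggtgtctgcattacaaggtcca
Wap promoter (chr11:6538653-6538902, minus strand): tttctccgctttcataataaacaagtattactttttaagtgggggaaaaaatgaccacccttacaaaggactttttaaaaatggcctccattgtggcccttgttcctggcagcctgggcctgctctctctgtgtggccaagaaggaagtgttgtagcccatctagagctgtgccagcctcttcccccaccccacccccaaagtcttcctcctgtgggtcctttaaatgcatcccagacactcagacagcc
Glycam1 promoter (chr15:103395513-103395762, minus strand): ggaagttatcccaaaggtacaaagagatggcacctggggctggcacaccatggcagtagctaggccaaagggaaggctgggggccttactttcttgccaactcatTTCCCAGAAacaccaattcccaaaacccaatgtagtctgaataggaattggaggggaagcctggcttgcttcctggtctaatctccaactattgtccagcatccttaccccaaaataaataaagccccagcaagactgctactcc

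In *Glycam1* the match TTCCCAGAA lies 145 to 137 bases before the start. The only other match among the 7 windows was a TATAAA in *Muc1*, 31 to 26 bases before its start. Of 32851 windows of this length in the table, 7.02% held TTCNNNGAA, 7.59% TATAAA and 16.1% TGTTCT. A match is a description of letters and not of binding, and no match says only that these letters are not in the window.

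The genes differed far more from each other than between the genotypes. Per kilobase of the longest coding transcript, the mean normalized level in *Robo1+/+* LPs was 8648 ± 1541 (SD, n = 3) for *Mfge8*, 2018 ± 319 for *Lalba*, 1865 ± 364 for *Btn1a1*, 1309 ± 384 for *Muc1*, 1221 ± 244 for *Plin2*, 453 ± 55.9 for *Xdh* and 305 ± 89.7 for *Cel*. *Glycam1* (11.5 ± 11.5) and *Wap* (6.32 ± 2.77) stood at the bottom. Within *Robo1+/+*, *Mfge8* was above *Lalba*, *Plin2* above *Xdh* and *Cel* above *Glycam1* with ranges that did not overlap. Neighbours whose *Robo1+/+* ranges did overlap were *Lalba* and *Btn1a1*, *Btn1a1* and *Muc1*, *Muc1* and *Plin2*, *Xdh* and *Cel*, and *Glycam1* and *Wap*.

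In *Robo1-/-* LPs the same quantity per kilobase was 6566 ± 4550 for *Mfge8*, 3516 ± 733 for *Lalba*, 2429 ± 1031 for *Btn1a1*, 1273 ± 330 for *Plin2*, 1028 ± 232 for *Muc1*, 463 ± 179 for *Xdh* and 196 ± 102 for *Cel* (SD, n = 3 each). *Mfge8* was above *Lalba* in 2 of the 3 libraries there, against 3 of 3 in *Robo1+/+*, and *Muc1* was above *Plin2* in 0 of 3 against 2 of 3. Neither change of order was tested. *Wap* has a second coding model of 551 bases beside the longest of 2171, and on the short one its levels become 24.9 ± 10.9 in *Robo1+/+* and 13.9 ± 8.22 in *Robo1-/-*, still below *Cel* in both genotypes.

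**Figure D1:**
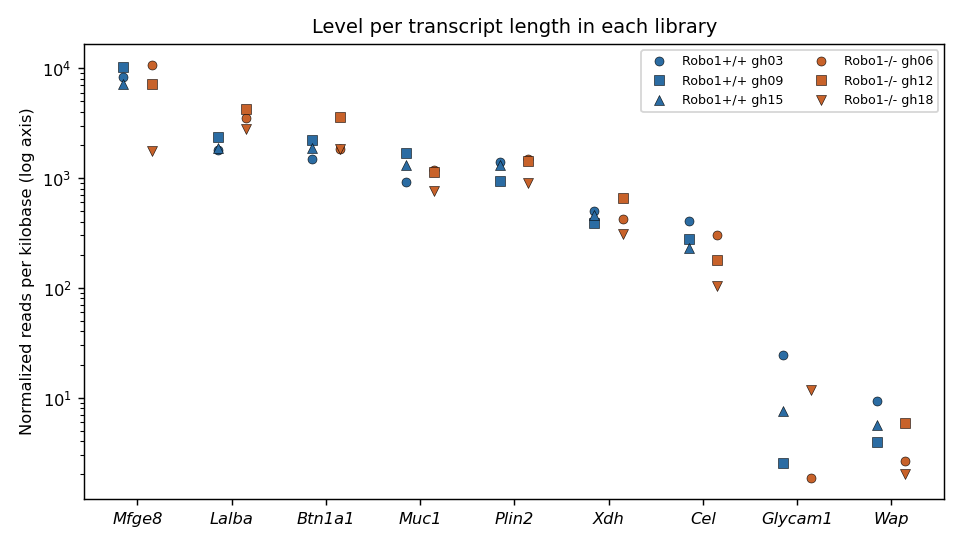
Normalized reads per kilobase of the longest coding transcript (log axis) for each gene, with 1 point per library, blue for Robo1+/+ and orange for Robo1-/-. Mfge8 is highest in mean, 5 genes from Lalba to Xdh fill the middle, and Glycam1 and Wap lie far below Cel; Glycam1 in gh12 is at 0 and has no point on a log axis.

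Set against all genes, *Mfge8* ranked 82 and *Lalba* 257 by mean level per kilobase over the 6 libraries among 12761 tested genes with a length, *Btn1a1* 337, *Plin2* 670, *Muc1* 728, *Xdh* 2227, *Cel* 4069 and *Wap* 12343. The 9 genes together took 0.240%, 0.287% and 0.234% of the reads in gh03, gh09 and gh15 and 0.284%, 0.283% and 0.120% in gh06, gh12 and gh18, with exact 95% intervals that run from 0.237% to 0.243% in gh03 and from 0.118% to 0.122% in gh18. Of the reads of the 9 genes, *Mfge8* took between 38.5% and 57.6% in every library but gh18, where it took 21.9%.

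No member passed an adjusted p of 0.05 between the genotypes in limma, where 0 of 13692 genes did so. At an unadjusted p of 0.05, 1 of the 8 tested members (*Lalba*) was past the threshold, with a background of 1.69% (231 genes, 0.767% of the tested genes being higher and 0.920% lower in *Robo1-/-*). Adding a 2-fold change left 0 of 8 members, with a background of 0.840% (115 genes, 0.292% higher and 0.548% lower). The genotypes did not overlap for 1 of the 8, again *Lalba*, with a background of 9.41% (1288 genes), of which 4.83% were higher and 4.58% lower in *Robo1-/-*. On recovered reads, edgeR called 0 genes at an adjusted p of 0.05 and 221 unadjusted, and DESeq2 called 1 (RP23-282C23.3) and 304. The members' fold changes were spread about 0, with 3 above and 5 below and a median log2 fold change (*Robo1-/-* minus *Robo1+/+*, log2 of value + 1) of -0.18 beside 0.00 for all tested genes. Without gh18 that median was 0.13, and with the GC correction 0.01.

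**Figure D2:**
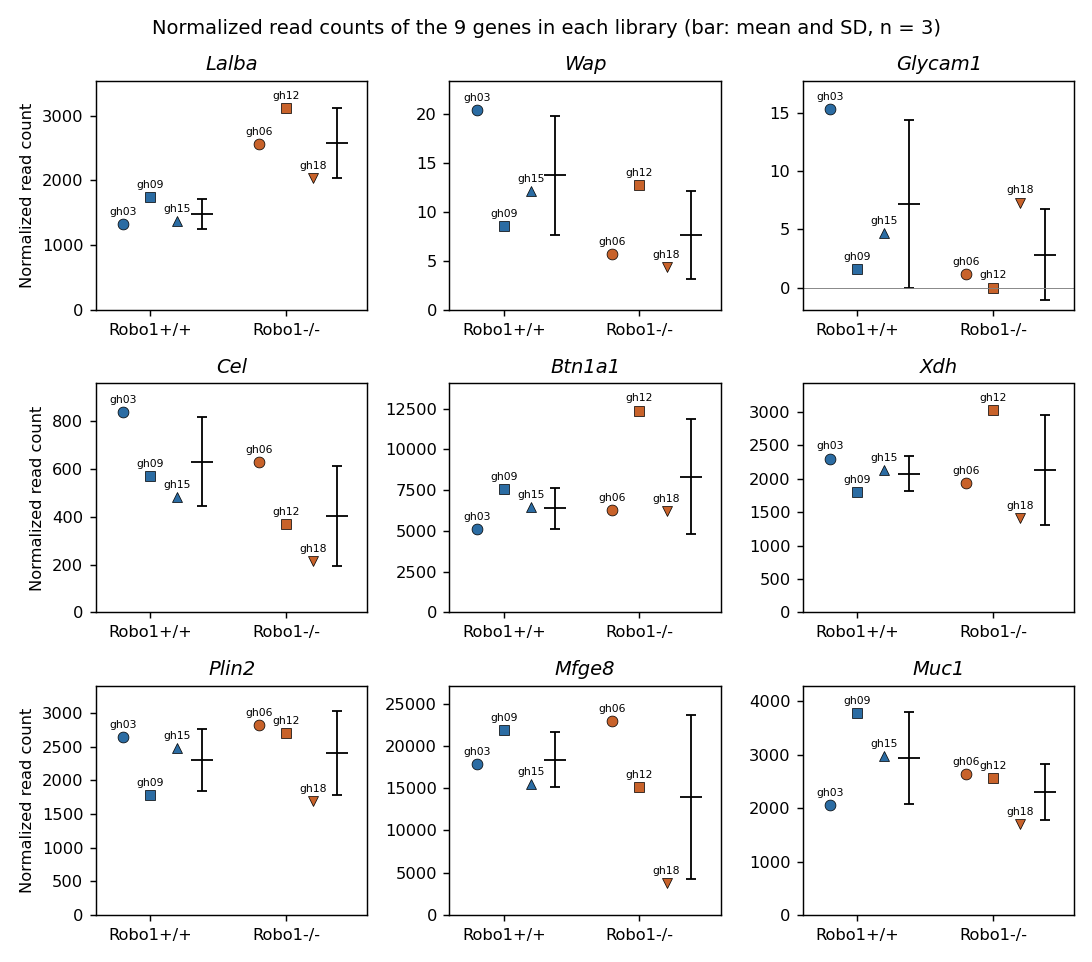
Normalized read count (linear axes that include 0, scaled by gene) of the 9 genes in each of the 6 libraries, with the mean and SD of each genotype as bars. Only for Lalba do all 3 Robo1-/- libraries (2044 to 3119) lie above all 3 Robo1+/+ libraries (1323 to 1748).

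The whey genes *Lalba* and *Wap* gave fold changes of opposite sign, neither of which passed correction. *Lalba* (kgCluster8969, chr15:98310831-98313114) encodes α-lactalbumin, the whey protein that turns β-1,4-galactosyltransferase into lactose synthase. Its normalized counts were 1323 in gh03, 1748 in gh09 and 1367 in gh15 (*Robo1+/+*), and 2568 in gh06, 3119 in gh12 and 2044 in gh18 (*Robo1-/-*). Every *Robo1-/-* library was above every *Robo1+/+* library, including gh18. The means were 1479 ± 234 and 2577 ± 537 (SD, n = 3 each), a log2 fold change of 0.79 (SE 0.24, 95% interval 0.23 to 1.35) that did not pass correction in limma (unadjusted p = 0.012, adjusted p = 0.858). The exact two-sided permutation p was 0.10, the smallest that 3 against 3 libraries allow. With the GC correction the log2 fold change was 0.82 and the genotypes still did not overlap, and with gh18 left out it was 0.95. When single libraries were left out it ranged from 0.64 to 0.95 and the unadjusted limma p from 0.0015 to 0.053, the highest being without gh12.

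*Wap* (kgCluster2954, chr11:6531490-6538652) encodes whey acidic protein, a late marker of alveolar differentiation. It rested on 16, 11 and 13 reads in gh03, gh09 and gh15, and on 5, 14 and 3 reads in gh06, gh12 and gh18. In normalized counts these were 20.4, 8.62 and 12.2 against 5.75, 12.8 and 4.38, with gh12 inside the *Robo1+/+* range and the other *Robo1-/-* libraries below it. The log2 fold change was -0.81 (SE 0.55, 95% interval -2.11 to 0.49, unadjusted p = 0.18 and adjusted p = 0.858, limma), and it ran from -1.21 to -0.50 when single libraries were left out. The 3 reads in gh18 are 3.1e-05% of that library, with an exact 95% interval of 6.4e-06% to 9.0e-05%. By limma-voom with quality weights the log2 fold change of *Wap* was -0.11 (unadjusted p = 0.80, adjusted p = 0.932).

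*Glycam1* (kgCluster9149, chr15:103393193-103395509) encodes a small mucin-like protein found in milk. It had 12, 2 and 5 reads in gh03, gh09 and gh15 and 1, 0 and 5 in gh06, gh12 and gh18, too few to be tested. The normalized counts of 15.3, 1.57 and 4.69 and of 1.15, 0 and 7.30 overlapped between the genotypes (exact two-sided permutation p = 0.40, n = 3 each). The 0 in gh12 allows a share of up to 3 of 15185303 reads. No fold change is given for it, since 3 of its 6 libraries were below 3 reads.

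*Cel* (kgCluster13366, chr2:28411315-28418923) encodes bile salt-stimulated lipase, an enzyme of milk that digests fat in the gut of the young. Its normalized counts were 837 in gh03, 571 in gh09 and 481 in gh15 (*Robo1+/+*), and 628 in gh06, 369 in gh12 and 213 in gh18 (*Robo1-/-*). The 2 lowest libraries were *Robo1-/-*, but gh06 was above 2 of the *Robo1+/+* libraries. The log2 fold change of -0.74 (SE 0.43, 95% interval -1.76 to 0.28) did not pass in limma (unadjusted p = 0.13, adjusted p = 0.858). It was -0.35 without gh18 and -0.52 with the GC correction, and -1.12 without gh06, where the unadjusted p was 0.025 and the adjusted p 0.549.

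Among proteins of the fat globule, the genotypes overlapped for *Btn1a1*, *Xdh* and *Plin2*, which act in its formation and release. *Btn1a1* (kgCluster5950, chr13:23548861-23557770) encodes butyrophilin, the membrane protein most closely tied to globule secretion. Its libraries gave normalized counts of 5093, 7579 and 6476 in gh03, gh09 and gh15 and 6312, 12390 and 6241 in gh06, gh12 and gh18. Only gh12 lay above the *Robo1+/+* range, and the other *Robo1-/-* libraries were within it. The log2 fold change was 0.32 (SE 0.33, 95% interval -0.45 to 1.09, unadjusted p = 0.36 and adjusted p = 0.858, limma), and without gh12 it was -0.01. By limma-voom with quality weights it was 0.64 (unadjusted p = 0.029, adjusted p = 0.374), a fit in which 1641 of 13692 genes had an unadjusted p under 0.05.

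*Xdh* (kgCluster11353, chr17:74233248-74299522) encodes xanthine oxidoreductase, a purine enzyme that binds butyrophilin at the apical membrane. Normalized counts for it were 2300, 1796 and 2131 in gh03, gh09 and gh15 and 1928, 3024 and 1418 in gh06, gh12 and gh18. The *Robo1-/-* libraries spanned the whole *Robo1+/+* range, with gh12 highest and gh18 lowest of all 6. The means of 2076 ± 256 and 2123 ± 820 (SD, n = 3 each) gave a log2 fold change of -0.03 (SE 0.30, 95% interval -0.75 to 0.69, adjusted p = 0.976, limma), so changes of up to about those bounds could not be told from none.

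*Plin2* (kgCluster17451, chr4:86294290-86315964) encodes perilipin 2, also called adipophilin, the coat of the cytoplasmic lipid droplet. In normalized counts it gave 2649, 1781 and 2486 in gh03, gh09 and gh15 and 2817, 2708 and 1687 in gh06, gh12 and gh18. Highest and lowest values both came from *Robo1-/-* libraries, and the spread over all 6 was 1.67-fold, the smallest of the 8 tested members. The log2 fold change was 0.04 (SE 0.28, 95% interval -0.62 to 0.71, adjusted p = 0.964, limma).

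The ratio of *Btn1a1* to *Xdh* per kilobase, the pair that meets at the apical membrane, was 2.97, 5.65 and 4.07 in gh03, gh09 and gh15 and 4.39, 5.49 and 5.90 in gh06, gh12 and gh18 (exact two-sided permutation p = 0.30, n = 3 each). *Btn1a1* exceeded *Xdh* in all 6 libraries. The ratio of *Lalba* to *Btn1a1* per kilobase was 1.21, 1.08 and 0.986 in *Robo1+/+* and 1.90, 1.18 and 1.53 in *Robo1-/-* (exact two-sided permutation p = 0.20), and gh12 overlapped the *Robo1+/+* range. With 3 libraries per genotype this test cannot give a p under 0.10, so it does not show whether *Lalba* and *Btn1a1* differed in their response.

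*Mfge8* (kgCluster23350, chr7:86278655-86293946) encodes lactadherin, a secreted protein of the globule membrane that binds phosphatidylserine. Its normalized counts were 17788, 21907 and 15436 in gh03, gh09 and gh15 and 22960, 15158 and 3737 in gh06, gh12 and gh18. The low value was confined to gh18, while gh06 was the highest of all 6 libraries and gh12 was just under the lowest *Robo1+/+* library. The means were 18377 ± 3275 and 13952 ± 9668 (SD, n = 3 each), with a log2 fold change of -0.74 (SE 0.63, 95% interval -2.23 to 0.76, unadjusted p = 0.28 and adjusted p = 0.858, limma). Without gh18 it was 0.04, and with the GC correction -0.11.

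*Mfge8* had the most GC-rich transcript of the 9 genes, at 57.6%. In gh18 its deviation from the mean of gh06 and gh12 was -2.32 on the log2 scale, where the 1111 tested genes within 1 percentage point of its GC content had a median of -1.71 and a middle range of -2.47 to -0.96. *Mfge8* was therefore inside the range of genes of like composition in that library. *Lalba*, *Xdh*, *Plin2* and *Muc1* were inside their own ranges too, whereas *Btn1a1* (-0.50, against a range of -0.30 to 0.51), *Cel* (-1.17, against -1.10 to -0.07) and *Wap* (-0.84, against -0.09 to 0.64) were below theirs. Library gh18 was the lowest of the *Robo1-/-* libraries for 8 of the 9 members, with a background of 46.1% of the tested genes.

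**Figure D3:**
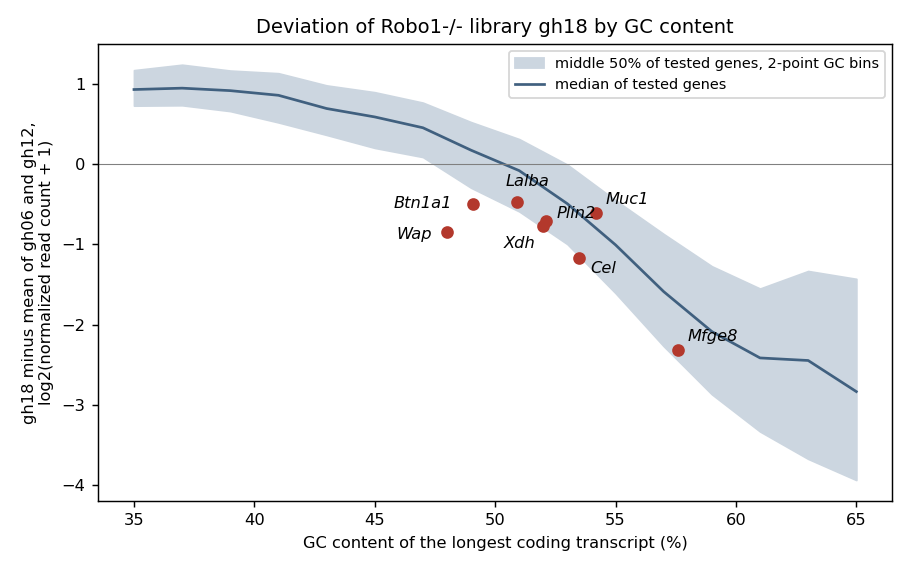
Deviation of Robo1-/- library gh18 from the mean of gh06 and gh12, in log2 of normalized read count + 1, against GC content of the longest coding transcript (%). The line is the median and the band the middle 50% of tested genes in bins of 2 percentage points, and the red points are the 8 tested members: Mfge8 at 57.6% and -2.32 lies within the band, and Wap, Btn1a1 and Cel lie at or below its lower edge.

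*Muc1* (kgCluster16123, chr3:89032979-89037303) encodes mucin 1, a heavily glycosylated protein of the apical membrane that is carried onto the globule. Libraries gh03, gh09 and gh15 had normalized counts of 2056, 3777 and 2973, and gh06, gh12 and gh18 had 2648, 2562 and 1706. Only gh18 was below the *Robo1+/+* range. The log2 fold change was -0.33 (SE 0.30, 95% interval -1.04 to 0.38, unadjusted p = 0.30 and adjusted p = 0.858, limma), and it was -0.13 without gh18 and -0.05 with the GC correction. Relative to *Btn1a1* per kilobase it was 0.616, 0.761 and 0.701 in *Robo1+/+* and 0.641, 0.316 and 0.417 in *Robo1-/-*, and the genotypes overlapped through gh06 (exact two-sided permutation p = 0.20, n = 3 each).

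**Figure D4:**
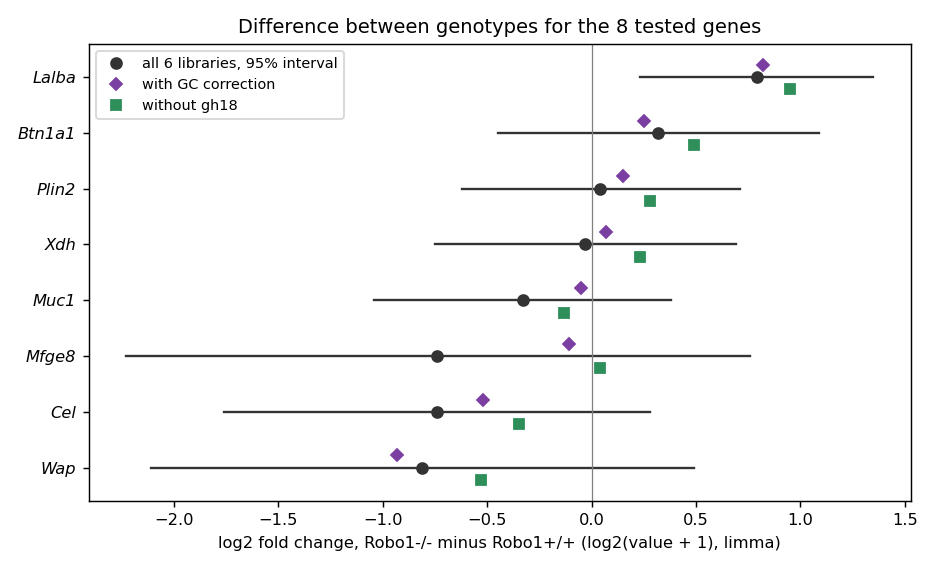
Log2 fold change between Robo1-/- and Robo1+/+ for the 8 tested genes, on log2 of value + 1, from limma with its 95% interval (black), with the GC correction (purple diamonds) and without gh18 (green squares). Lalba (0.79, interval 0.23 to 1.35) has the only interval clear of 0, and the point for Mfge8 moves from -0.74 to 0.04 without gh18.

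Few genes of related lists passed the same thresholds, none passed an adjusted p of 0.05, and which genes passed changed with the libraries used. Over all genes, 1.42% (195) passed without gh18, 4.61% (631) without gh06, 0.621% (85) without gh15 and 0.471% (59) with the GC correction. Of the 5 caseins, all tested, 0 passed an unadjusted p of 0.05 with a 2-fold change (background 0.840%), and their median log2 fold change was -0.55. That median was -1.43 without gh18 and 0.21 without gh03, and *Csn2*, β-casein, passed both thresholds as lower without gh18 (-2.96, unadjusted p = 0.020, against -1.77 and 0.20 with all libraries). Without gh06, *Csn3* passed as higher. *Csn3*, κ-casein, was like *Lalba* in that its genotypes did not overlap, with normalized counts of 7755, 8119 and 9771 in gh03, gh09 and gh15 and 11376, 19142 and 16669 in gh06, gh12 and gh18. Its log2 fold change was 0.85 (SE 0.25, unadjusted p = 0.012, adjusted p = 0.858, limma) and 0.46 with the GC correction (unadjusted p = 0.14), where its genotypes overlapped and those of *Lalba* did not. *Csn1s1*, αs1-casein, had 18257, 2317 and 6291 against 2432, 2355 and 14946, a 7.88-fold spread over the 6 libraries where *Lalba* spread 2.36-fold. *Csn1s1* was highest in gh03 and gh18, whereas *Lalba* was lowest in gh03.

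Of 18 other milk and secretory proteins, 15 were tested and 0 passed in either direction, with a median log2 fold change of -0.01. Without gh18 that median was 0.23 and 1 passed, *Dmbt1* (2.34, unadjusted p = 0.014), while *Spp1* passed as higher without gh15, and *Spp1* (higher) and *Slpi* (lower) without gh06. *Slpi* was at -0.57 without gh18 (unadjusted p = 0.13, limma). The list's most abundant members, *Trf* (transferrin) and *Ltf* (lactoferrin), gave 0.21 (adjusted p = 0.858, limma) and 0.74 (adjusted p = 0.858, limma). Of 19 further fat globule and lipid droplet proteins, 17 were found and 15 tested, with *Muc15* in 2 clusters, and 0 passed, with a median of -0.32. The median was -0.08 with the GC correction, and without gh18 2 passed as lower, *Muc4* (-1.72, unadjusted p = 0.0044) and *Fabp5* (-1.20, unadjusted p = 0.037). Without gh06, *Edil3* passed as higher and *Plin5* as lower. Without gh18 they gave 0.56 and -0.18, in that order. *Anxa2* and *Anxa5*, membrane-binding annexins and the most abundant of these, gave -0.20 and 0.10. Of 32 genes of milk fat synthesis, 31 were tested and 0 passed, with a median of -0.20 (-0.06 without gh18). Without gh06, *Scd1* passed as higher and *Fasn* as lower. Without gh18 they gave 0.33 and -0.56, in that order. With all libraries *Scd1*, which desaturates fatty acids, had 0.62 and *Acly*, which makes cytosolic acetyl-CoA, had -0.39.

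Lactose synthesis is the pathway *Lalba* serves. Of its 9 other genes, all tested, 0 passed and the median log2 fold change was -0.13. It was 0.04 without gh18. *B4galt1*, the galactosyltransferase that α-lactalbumin modifies, had normalized counts of 2636, 2839 and 2767 in gh03, gh09 and gh15 and 2465, 2854 and 2765 in gh06, gh12 and gh18. These overlapped throughout, with a log2 fold change of -0.03 (SE 0.18, adjusted p = 0.963, limma). *Slc2a1*, the glucose transporter GLUT1, gave -0.67, and 0.04 without gh18.

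Among 20 regulators of lactogenesis, all tested, 1 was lower past an unadjusted p of 0.05 and 2-fold (background 0.548%) and 0 were higher, with a median log2 fold change of 0.19 (0.01 with the GC correction). The 1 was *Esrrb*, an orphan nuclear receptor, whose normalized counts were 318, 132 and 84.4 in the *Robo1+/+* libraries, all above the 67.9, 13.7 and 39.4 of the *Robo1-/-* libraries (log2 fold change -2.15, SE 0.71, unadjusted p = 0.019, adjusted p = 0.858, limma). *Esrrb* did not pass without gh03 or without gh12. The paper had already reported *Esrrb* as downregulated from these same libraries, and the list was made with that known. The count of 1 in 20 is therefore not independent of its values. Also lower past both thresholds were *Socs2* without gh18 and *Stat5a* without gh06. *Stat5a* gave -0.61 with all libraries, -0.18 without gh18 and -0.16 with the GC correction. *Prlr*, the prolactin receptor, and *Nfib*, a nuclear factor I protein, were the most abundant of the list and had log2 fold changes of 0.49 and 0.27. Of 23 relatives of the members, such as other perilipins, mucins and WAP-domain genes, 15 were tested and 0 passed, with *Wfdc18* at -0.32 and the larger *Muc15* cluster at 0.30. Without gh18 *Muc4* passed as lower, and without gh06 *Edil3* passed as higher and *Slpi* and *Plin5* as lower. All the relatives named here also belong to the secretory or fat globule lists above, so these are the same results and not further ones.

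The genes whose log2(value + 1) followed a member most closely over the 6 libraries were sought among 11479 genes with a mean of at least 50. For *Lalba* they were *Dnajc3* (Pearson r of 0.9852), *Rbl2* (0.9783) and *Mr1* (0.9723), and 10 genes had an r over 0.95. For *Mfge8* they were *Ring1* (0.9997), *Pim3* (0.9983) and *2010001M06Rik* (0.9981), and 1423 genes had an r over 0.95. *Ring1* and *Pim3* have GC contents of 60.7% and 62.0%, and like *Mfge8* were lowest in gh18. For *Plin2* they were *Zfp61* (0.9676), *1810012P15Rik* (0.9442) and *Zcchc8* (0.9307), with 1 gene over 0.95. For *Wap*, whose values rest on few reads, they were *Rab7l1* (0.9933), *Akr1b3* (0.9923) and *Gm6644* (0.9922), with 18 genes over 0.95. The values of *Akr1b3* and *Gm6644* were nearly the same in every library (1743 and 1742 in gh03), so the 2 clusters cannot be told apart. All these coefficients are over 6 points that share 2 genotypes and the library effects described above.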

How the data were processed

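The authors sequenced poly(A)+ RNA on an Illumina HiSeq, trimmed read pairs to 75 bases, set aside those matching repeat elements (bowtie2), aligned the others to NCBI37/mm9 by TopHat, and took normalized counts from DESeq2, per their methods; the submitters' processing notes name Bowtie, TopHat, SAMtools and DESeq. What the authors deposited is a normalized signal for every known-gene cluster: its reads after division by a size factor that is the same for all genes of a library. The counting tool, its use of strand and its rule for multiply mapped reads are not given in the sources used here. Dividing by the value of 1 read gave whole reads for 100% of values within rounding. Column names matched the sample titles, and 0 columns were unmapped. No 2 libraries agreed within sampling noise.

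Genotypes were compared by limma 3.58.1 (R 4.3.3) on log2(value + 1) with an intensity trend; filterByExpr of edgeR 4.0.16, run on recovered reads, left 13692 genes, over all of which p-values were adjusted (Benjamini-Hochberg). Fold changes on this scale understate those of low genes. Alternatives were edgeR, DESeq2 1.42.0, limma-voom with quality weights, other scalings, filters and pseudocounts, a lowess GC correction per library, and each library left out. Scripts were tested on simulated data. Positions, lengths and GC content came from GENCODE M1 (NCBI37/mm9). None of the 75-base sequences of the members' longest coding transcripts occurs in the coding transcripts of another gene, read in the sense direction (0%). Noncoding genes and the rest of the genome were not searched. Intervals on reads and floors of 3 reads cover counting error only.

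The genes and lists were chosen with earlier results of these data known. Named genes are the 9 members, *Robo1*, the 2 most abundant genes of each list and at most 5 past an unadjusted p of 0.05 and 2-fold, and the 3 genes most correlated with *Wap*, *Lalba*, *Plin2* and *Mfge8*. Exceptions, named after their values were seen, are *Cd24a*, *Ptprc*, *Fabp4*, *Pdgfra*, RP23-282C23.3 and the named hormone-sensing markers other than *Prlr* and *Areg*. Genes that passed only under an alternative are further exceptions of this kind. The list counts under alternatives were added after seeing the data.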

Additional observations from a re-analysis of the deposited data

How the results depend on the processing

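Across 16 alternatives, 10 of processing and 6 that left out 1 library, 0 member values passed an adjusted p of 0.05, and the lowest was that of *Lalba* by limma-voom with quality weights (unadjusted p = 1.7e-04, where 1641 genes had an unadjusted p under 0.05). *Lalba*, *Wap*, *Cel* and *Muc1* kept their direction in all 16, though *Wap* (-0.81) was -0.11 by limma-voom with quality weights. *Xdh* (-0.03) changed sign in 8, with log2 fold changes of 0.02 by edgeR, 0.03 by DESeq2, 0.39 by limma-voom with quality weights, 0.01 with upper-quartile scaling and 0.07 with the GC correction, and from -0.32 to 0.23 with single libraries left out (0.05 without gh03, 0.00 without gh06, 0.23 without gh18). *Plin2* ran from -0.13 to 0.28 in those fits (-0.13 without gh09, -0.09 without gh06, -0.06 without gh12), *Btn1a1* from -0.01 to 0.49 (-0.01 without gh12; 0.64 by limma-voom with quality weights, unadjusted p = 0.029) and *Mfge8* from -1.27 to 0.04 (0.04 without gh18). Genes past an adjusted p of 0.05 numbered 0 except for 1 by DESeq2. Genes past an unadjusted p of 0.05 and 2-fold numbered 115, but 382 by limma-voom with quality weights, 304 with every gene of at least 1 read, 59 with the GC correction, and from 84 to 631 with single libraries left out (195 without gh18, 631 without gh06). Of them 65.2% were lower in *Robo1-/-*, against 40.7% with the GC correction, and from 49.4% (without gh15) to 89.7% (without gh06) with single libraries left out. Members past both thresholds numbered 0, and 1 (*Cel*) without gh06. The causes were not tested. No paired analysis was made because the sample titles give a genotype and a library number but name no litter or pair. Precision is limited by 3 libraries per genotype, and for *Wap* and *Glycam1* by counts of 0 to 16 reads.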

Other observations

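Markers of the other cell types in the gland were measured in the same libraries. All 12 hormone-sensing luminal markers were tested, and 0 passed an unadjusted p of 0.05 with a 2-fold change, with 8 log2 fold changes above 0, 4 below and a median of 0.20. Those furthest below were *Calca* (calcitonin, -4.35, unadjusted p = 0.050), *Tnfsf11* (RANKL, -2.94, unadjusted p = 0.18), *Wnt4* (-2.60, unadjusted p = 0.13) and *Cited1* (-1.01, unadjusted p = 0.32), all in limma with adjusted p = 0.858. *Calca* had normalized counts of 5518, 578 and 1477 in gh03, gh09 and gh15 and 125, 3.66 and 943 in gh06, gh12 and gh18. *Tnfsf11* had 1660, 199 and 124 against 108, 0.920 and 439. Both overlapped between the genotypes, and in gh12 they rested on 4 reads and 1 read. *Wnt4* had normalized counts of 460, 213 and 4.38 in gh06, gh12 and gh18, and *Cited1* had 3240, 3954 and 286. Their log2 fold changes were -0.65 and 0.20 without gh18, and -2.15 and 0.03 with the GC correction. Without gh18, *Calca* (-6.11, unadjusted p = 0.0049) and *Tnfsf11* (-4.58) passed as lower and *Prom1* (1.32) as higher; without gh06, *Wnt4* passed as lower. The most abundant were *Prlr* and *Areg*, an epidermal growth factor-like ligand, at 0.49 and 0.22. *Pgr*, the progesterone receptor, had normalized counts of 1721, 3003 and 3394 in gh03, gh09 and gh15 and 5481, 4124 and 3752 in gh06, gh12 and gh18, which did not overlap, with a log2 fold change of 0.76 (unadjusted p = 0.044, adjusted p = 0.858, limma). With the GC correction *Pgr* was 1.23 (unadjusted p = 0.0082) and passed as higher, and *Calca* passed as lower (-4.43, unadjusted p = 0.044). Of 8 endothelial markers, 7 were measured, and their sum of 719 to 2234 in *Robo1+/+* and 191 to 1146 in *Robo1-/-* was mostly *Vwf*. *Vwf* passed as lower without gh15 and without gh06, but not with all libraries. The 8 fibroblast markers summed to between 756 and 879 in *Robo1+/+* and between 358 and 1083 in *Robo1-/-*. *Dcn* was the most abundant over all libraries, though in gh12 its 88.9 was below the 120 of *Pdgfra*. *Cd74*, which also serves antigen presentation, had normalized counts of 91.6, 47.8 and 133 in *Robo1+/+* libraries and 27.6, 26.6 and 23.4 in *Robo1-/-* libraries (log2 fold change -1.66, unadjusted p = 0.0073, adjusted p = 0.858, limma). Of the 3 tested leukocyte markers, it was the 1 lower past an unadjusted p of 0.05 and 2-fold (background 0.548%). It also passed as lower with each single library left out. With the GC correction *Cd74* was -1.14 (unadjusted p = 0.067) and its genotypes overlapped.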
